A study of Drosophila melanogaster with 9 samples.

Results

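The genes described here encode the proteins of the cytosolic ribosome in shSet2 photoreceptor nuclei of Drosophila melanogaster. They were chosen by name alone, as genes whose FlyBase symbol begins with RpL or RpS. The rule found 92 genes of the 13947 in the counts table, 54 of the large (60S) subunit and 38 of the small (40S) subunit. It leaves out the mitochondrial ribosomal proteins, and also sta, which encodes the 40S protein SA under another name. The rule itself used no measured value, though earlier results of these data were known when the genes were chosen.

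The RNA came from male flies aged 10 days after eclosion and collected at zeitgeber time 6. They carried UAS-GFP-Msp300KASH at attP2, rh1-GAL4 with ry506, and a UAS hairpin against Set2, the enzyme that adds the H3K36me3 histone mark (TRiP.HMJ02076 at attP40). The rh1-GAL4 driver is active in outer photoreceptors from late pupal life, and a single hairpin line was used for the knockdown. Nuclei tagged with GFP were pulled out of head homogenate, and 10 ng of nuclear RNA went into each of 3 libraries, named replicates 1, 2 and 3. How many flies were pooled for a replicate is not given in the sources used here. The shControl flies express a hairpin against mCherry, which is not a fly gene. RNA-seq libraries of shControl photoreceptors and the ATAC-seq libraries were not analysed here. Every value below therefore describes shSet2 photoreceptors and none measures an effect of Set2.

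A ribosome holds each of its proteins in about equal number, and most of the genes that encode them are haploinsufficient in flies, where loss of a copy gives the Minute phenotype of slow growth and thin bristles. Ribosomal proteins are made in the cytoplasm, carried into the nucleus, and assembled with ribosomal RNA in the nucleolus. Nuclear RNA holds transcripts that are being made, spliced or awaiting export, so counts from nuclei do not report the cytoplasmic pool on which protein synthesis draws. Many ribosomal protein genes also carry small nucleolar RNAs (snoRNAs), the guides of ribosomal RNA modification, in their introns.

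The libraries held 3657491 to 4960498 counts. Set2 had 313, 370 and 369 counts in replicates 1, 2 and 3, and the size of the knockdown cannot be read without shControl RNA. All 8 genes of the outer photoreceptor list, ninaE among them, had 3444 to 79211 counts in every library. Most of the list are general phototransduction genes, so it does not set outer apart from inner photoreceptors. Inner photoreceptor opsins, at 11 to 84 counts, and markers of glia and other neurons, at 13 to 316 counts, were also present. Of 6 gonad genes listed in the counts table (vas, bam, aub, piwi, zpg and tj), none reached 10 counts in every library, and bam and aub had 0 counts.

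Cytosolic ribosomal protein genes took 0.167% ± 0.0200 (SD, n = 3) of the counts, although they are 0.660% of the genes listed. The share was 0.183% in replicate 1 (6709 counts, 95% Wilson interval 0.179% to 0.188%), 0.145% in replicate 2 (5499 counts, 0.141% to 0.149%) and 0.173% in replicate 3 (8605 counts, 0.170% to 0.177%). The interval of replicate 2 lay below those of the other libraries. Intervals cover counting error only, since reads without molecular identifiers are not independent molecules. In these bulk nuclei, fewer nuclei of a cell type and less RNA per nucleus cannot be told apart.

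A minimum of 10 counts in each library was set for a gene to be called expressed. This held for 80 of the 92 genes, 48 of the 60S and 32 of the 40S subunit, and for 5802 genes in all. The other 12 genes are all copies of a duplicated gene, and together they had 81 counts over the 3 libraries. Each of the 65 ribosomal protein genes without a named copy was expressed.

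Levels were given as counts per 1000000 counts of the library (CPM) on library sizes scaled by TMM, a method that sets library sizes by the bulk of genes. The median expressed ribosomal protein gene was at 17.8 CPM, against 18.6 CPM for all expressed genes, and 38 of the 80 lay above the median of all expressed genes. Ribosomal protein genes are short, with a median span of 1.39 kb from start to end of the annotated gene, against 3.997 kb for all expressed genes. Per kb of gene span, their median was 12.9 CPM per kb, against 5.39 CPM per kb for all expressed genes, and 75 of the 80 were above that median. Exon lengths were not used here, so a gene with long introns is understated on this scale.

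The genes sat within a narrower band than all expressed genes, but other families did so too. Their lower and upper quartiles were 9.17 and 17.6 CPM per kb. Those of expressed mitochondrial ribosomal protein genes were 3.07 and 5.62, of proteasome genes 3.28 and 7.34, and of translation initiation factor genes 4.19 and 12.5 CPM per kb. For all expressed genes the quartiles were 2.61 and 12.2 CPM per kb, so the upper quartile of the initiation factors was close to theirs. The gene at the 90th percentile was 3.65 times the gene at the 10th percentile in CPM per kb among the ribosomal protein genes, against 27.5 times among all expressed genes. From the lowest to the highest of the 80, the mean level ranged 7.85-fold.

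**Figure D1:**
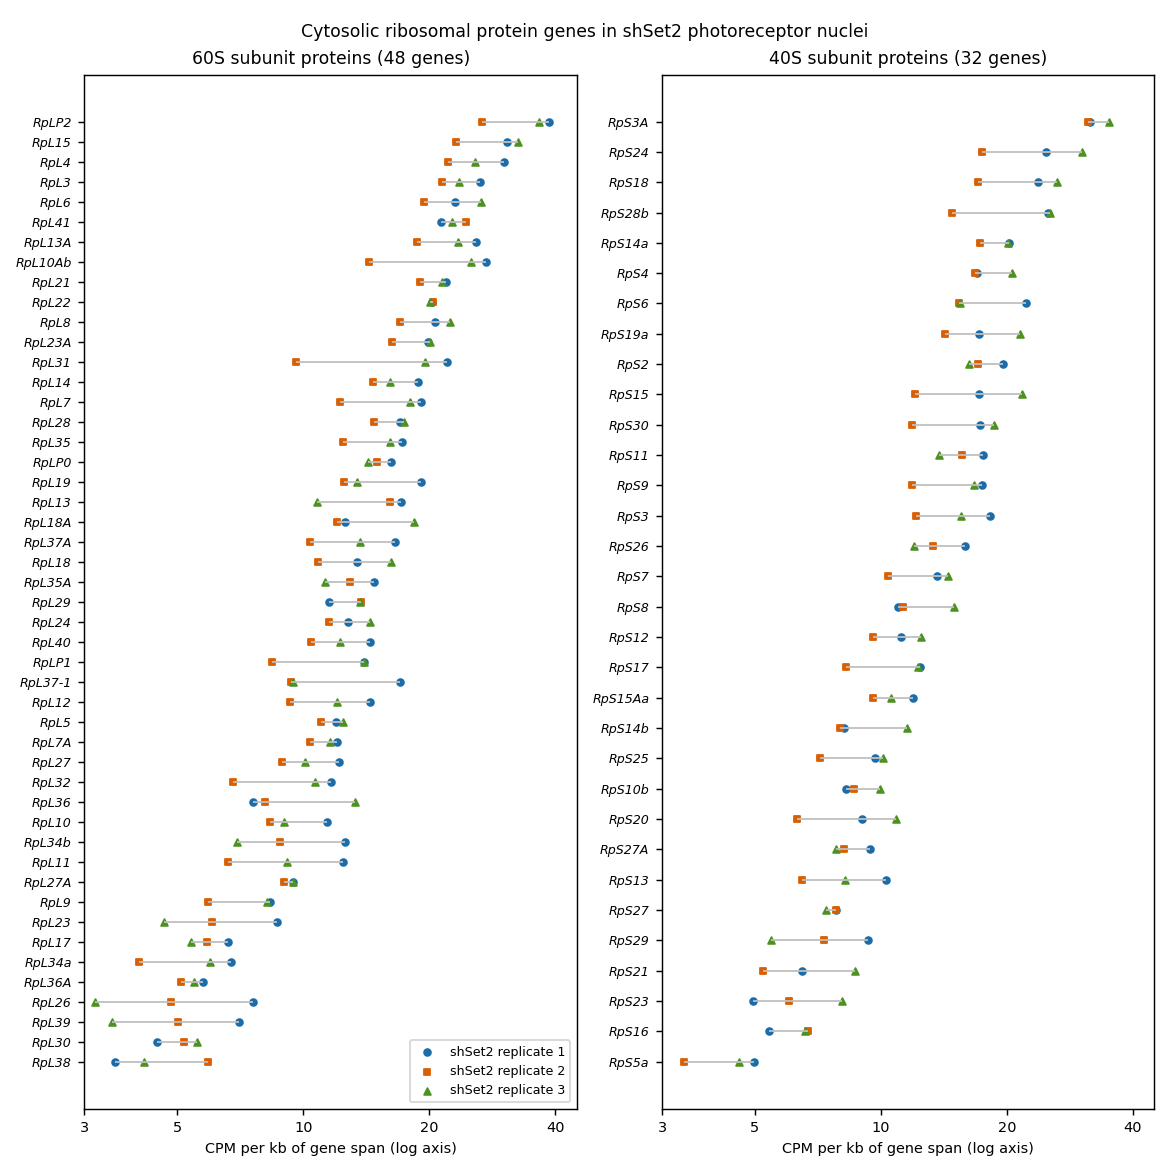
Level of each of the 80 expressed ribosomal protein genes in CPM per kb of gene span (log axis), with 1 point per shSet2 replicate and a grey line over their range, sorted by mean within the 60S and 40S subunits. RpLP2 and RpS3A head their subunits at 34.0 and 32.6 CPM per kb, and the orange squares of replicate 2 mark the low end of most lines.

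The level per kb was highest for RpLP2, which encodes a protein of the acidic stalk that recruits elongation factors. RpLP2 had 86, 61 and 109 counts in replicates 1, 2 and 3, or 34.0 ± 6.35 CPM per kb (SD, n = 3). RpS3A encodes a 40S protein and is the sole member on chromosome 4. It had 231, 234 and 343 counts, or 32.6 ± 2.12 CPM per kb. These genes did not differ beyond their spread, since the range of RpS3A lay inside that of RpLP2.

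The next in order were RpL15 at 28.8 ± 4.99, RpL4 at 26.01 ± 4.01 and RpS24 at 24.2 ± 6.37 CPM per kb. RpL4 encodes a protein that lines the exit tunnel of the nascent chain. RpL3, whose protein reaches the peptidyl transferase centre, had the most counts of any member, at 319, 266 and 380, and stood at 23.8 ± 2.46 CPM per kb.

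The low end of the expressed genes was RpS5a, at 4.32 ± 0.828 CPM per kb. It had 86, 60 and 106 counts, close to the median gene in CPM (20.2 ± 3.87). Its span of 4.68 kb was the longest of all members and holds 14 snoRNA genes. RpL38, RpL30, RpL39 and RpL26 followed at 4.54 ± 1.24, 5.07 ± 0.559, 5.18 ± 1.76 and 5.20 ± 2.24 CPM per kb.

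RpL39 encodes a very small protein of the exit tunnel. With 15, 11 and 10 counts it had the lowest sum of any expressed member, and its span of 579 bases overlaps RpL12 by 8 bases. RpL38 had 14, 24 and 22 counts, and its highest library by CPM was replicate 2, unlike most members. RpL26 had 43, 28 and 24 counts, with replicate 1 well above the others in CPM (11.7, 7.41 and 4.86).

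The stalk proteins were not at like levels per kb. RpLP0, the base of the stalk, had 97, 92 and 114 counts and 15.2 ± 0.989 CPM per kb. RpLP1 had 47, 29 and 63 counts and 12.1 ± 3.21 CPM per kb. All 3 libraries of RpLP2 lay above every library of both.

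RpL40 and RpS27A encode ribosomal proteins fused to ubiquitin, which is cut off to give the free protein. RpL40 had 46, 34 and 52 counts, or 12.4 ± 2.01 CPM per kb. RpS27A had 73, 65 and 81 counts, or 8.45 ± 0.837 CPM per kb, but the annotated gene Ip259 lies wholly within its span, so its counts are uncertain. RpS6, whose protein is the substrate of S6 kinase, had 140, 99 and 130 counts, or 17.7 ± 3.94 CPM per kb. In RpS6 the library of replicate 1 was above the other libraries in CPM (37.9, 26.2 and 26.3).

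The 2 subunits were at like levels. The median was 14.4, 10.9 and 13.6 CPM per kb in replicates 1, 2 and 3 for the 60S genes, against 13.0, 10.8 and 13.1 CPM per kb for the 40S genes. The ratio of 60S to 40S was 1.05 ± 0.0542 (SD, n = 3). Without the correction for length, the ratio of median CPM was 0.869, so the order of the subunits turned with the length scale.

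Across the 80 genes, CPM followed gene span, with Spearman's rho of 0.60 and Pearson's r of 0.62 on log2 values. Genes are not independent replicates, and all points share the same 3 libraries. On the scale per kb, rho with span was -0.05. Of the 92 genes, 28 hold at least 1 annotated snoRNA gene inside their span, 74 snoRNA genes in all, and all 28 were expressed. These hosts had a median of 28.4 CPM, against 15.7 CPM for the 52 expressed genes without a snoRNA gene. Their median spans were 1.89 and 1.17 kb, and per kb the medians were 14.1 and 12.9 CPM. The order by CPM held in each library, at 30.9, 25.8 and 28.7 CPM for the hosts, against 17.5, 13.1 and 16.4 CPM for the others.

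**Figure D2:**
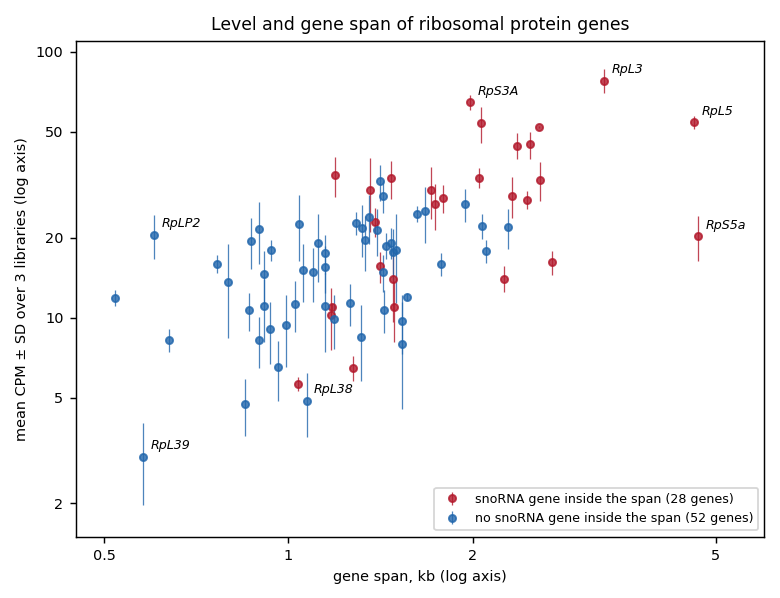
Mean CPM of the 80 expressed ribosomal protein genes with SD bars (n = 3 shSet2 libraries) against gene span in kb, both on log axes. The 28 genes with a snoRNA gene inside the span (red) lie toward longer spans and higher CPM than the 52 others (blue), and RpS5a falls below genes of like span.

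The members lie on every major chromosome arm, with 19 genes on 2L, 21 on 2R, 14 on 3L, 23 on 3R, 14 on X and RpS3A on 4. All 14 genes on X were expressed, and so were 66 of the 78 on autosomes, against 41.6% of all genes on any chromosome. The 12 that were not expressed are each a copy with fewer counts in a duplicated group. The expressed share of all genes by chromosome was not computed. The flies were males, in which the X is dosage compensated. The median was 11.6 CPM per kb on X, against 13.0 CPM per kb on autosomes. By library it was 14.5, 9.97 and 12.4 CPM per kb on X, against 14.2, 11.2 and 13.7 CPM per kb on autosomes, so the order turned in replicate 1.

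Duplicated ribosomal protein genes were then compared copy by copy. Symbols that share a stem gave 13 groups with 27 genes. Copies are known in flies that are used mainly in the germline, such as RpS5b, RpS10a and RpS19b in ovary or testis and RpL22-like in testis. In these photoreceptor nuclei 1 copy held nearly all counts in most groups, and the copy with more counts took 3699 counts in total against 245 for the others.

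Among the 14 minor copies, 6 had 0 counts in all 3 libraries. RpL10Aa had 0 counts against 137, 74 and 169 for RpL10Ab, which encodes a protein of the L1 stalk. The limit that 3 counts would set is 0.789% of the group's 380 counts. RpL37-2, RpL7-like, RpS19b, RpS28a and RpS28-like were also at 0, with limits of 1.38%, 1.11%, 0.990%, 1.06% and 1.06% of their groups. Their partners were all well counted, RpL37-1 with 94, 53 and 70, RpL7 with 93, 61 and 117, RpS19a with 86, 73 and 144, and RpS28b with 96, 58 and 130 counts. RpL7-like shares 1904 bases of its span with CG34164, which also had 0 counts in every library. Reads that fall in both genes may have been dropped in counting, so the 0 and the limit of RpL7-like are uncertain.

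A further 3 copies never rose above 3 counts in a library. RpL22-like (FBgn0034837) had 1, 0 and 0 counts, against 193, 198 and 254 for RpL22 (FBgn0015288), a share of 0.155% of the summed counts (95% Wilson interval 0.0273% to 0.872%). RpS5b had 1, 1 and 2 counts, against 86, 60 and 106 for RpS5a. RpS10a had 3, 0 and 1 counts, against 54, 58 and 87 for RpS10b. RpS10a lies wholly within the span of tau, a neuronal microtubule protein gene with 1651, 2088 and 2892 counts, so even these few counts are uncertain.

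RpLP0-like, RpS15Ab and RpL24-like were above the floor in at least 2 libraries but under 10 counts in some library. RpLP0-like had 5, 5 and 3 counts, or 4.21% ± 1.43 (SD, n = 3) of its group. RpS15Ab had 6, 5 and 9 counts, or 6.71% ± 0.852. RpL24-like had 17, 7 and 15 counts, or 14.2% ± 5.17, beside 68, 63 and 103 for RpL24. The proteins of RpLP0-like and RpL24-like are known from their yeast relatives as ribosome assembly factors, which leave the particle before it is mature.

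In the remaining groups both copies were expressed. RpL34a had 21, 13 and 25 counts, against 46, 33 and 34 for RpL34b, and took 34.0% ± 7.42 of the group. RpS14b (chrX:7934898-7935792) had 27, 27 and 51 counts, against 70, 61 and 93 for its neighbour RpS14a (chrX:7933742-7934677), coordinates being those of Release 6 plus ISO1 MT. RpS14b took 27.8%, 30.7% and 35.4% of the group's counts in replicates 1, 2 and 3, with 95% Wilson intervals that overlapped (19.9% to 37.5%, 22.0% to 41.0% and 28.1% to 43.5%). RpS14a and RpS14b encode the same protein. Reads that match both can be split or dropped in counting, and how they were treated is not given in the sources used here.

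Among the copies with more counts, 8 of 13 lie on X, namely RpL22, RpL37-1, RpS5a, RpS10b, RpS14a, RpS15Aa, RpS19a and RpS28b. Of the copies with fewer counts, RpS14b alone lies on X and the other 13 on autosomes. Over all 92 members, 14 lie on X, and 9 of these belong to the duplicated groups. The share of all genes that lie on X was not computed, so no departure from it is claimed.

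**Figure D3:**
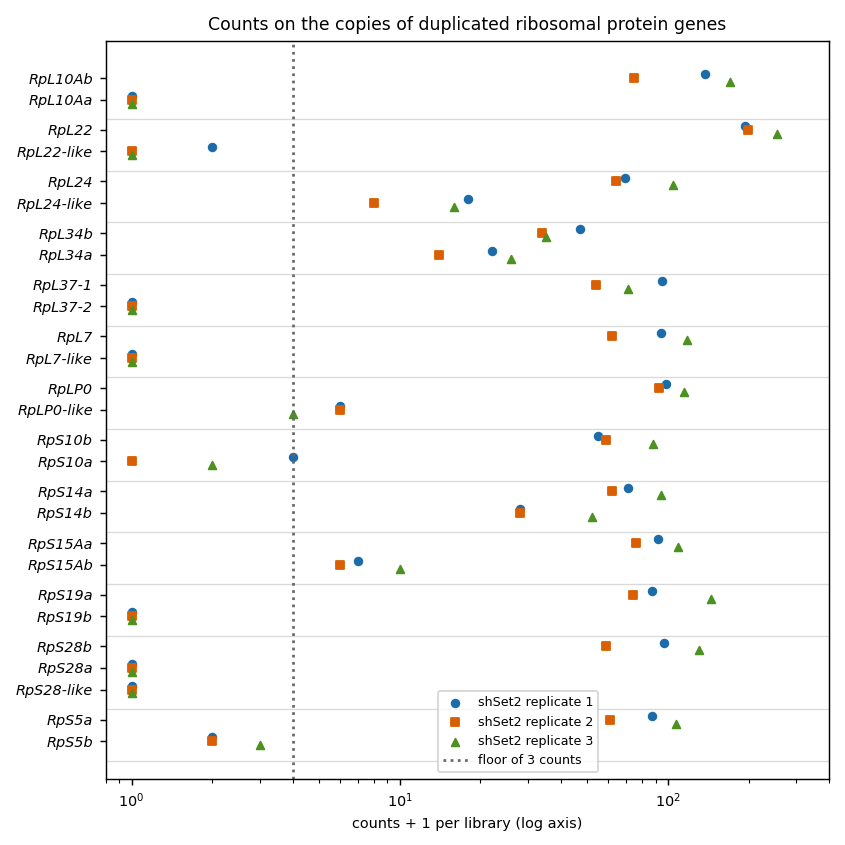
Counts + 1 (log axis) for each copy of the 13 groups of duplicated ribosomal protein genes, with 1 point per shSet2 replicate and groups set apart by lines. For 9 of the 14 minor copies every library lies at or left of the dotted floor of 3 counts, and both copies of RpL34 and of RpS14 had at least 13 counts in every library.

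The ribosomal protein genes were lower in replicate 2 than in the other libraries. Summed over all 92 genes, the level was 1818, 1455 and 1744 CPM in replicates 1, 2 and 3. Replicate 2 was 18.3% below the mean of the other replicates, and replicate 1 was 1.04 times replicate 3. Of the 80 expressed genes, 56 (70.0%) had their lowest CPM in replicate 2, against 28.9% of all 5802 expressed genes. Replicate 1 was the lowest library for 9 of the 80, against 34.1% of all expressed genes, and replicate 3 for 15 of the 80, against 37% of all. The highest CPM was in replicate 1 for 45 of the 80 (35.4% of all expressed genes), in replicate 2 for 5 (30.1% of all) and in replicate 3 for 30 (34.5% of all).

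As a log2 deviation from the mean of the other replicates, the median over the genes was 0.22 in replicate 1, -0.28 in replicate 2 and 0.11 in replicate 3. It was within 0.01 of 0 for all expressed genes in each library (0.01, -0.00 and -0.00). In replicate 2 the deviation was below 0 for 69 of the 80 genes, against 50.1% of all expressed genes. It was below 0 for 16 of the 80 in replicate 1, against 48.8% of all, and for 27 of the 80 in replicate 3, against 50.6% of all. Both subunits were low in replicate 2, with medians of -0.29 for the 60S genes and -0.27 for the 40S genes. In replicate 1 the medians were 0.27 for 60S and 0.15 for 40S genes, and in replicate 3 they were 0.05 and 0.24. With a single group of libraries these values describe the libraries, and no test was made.

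**Figure D4:**
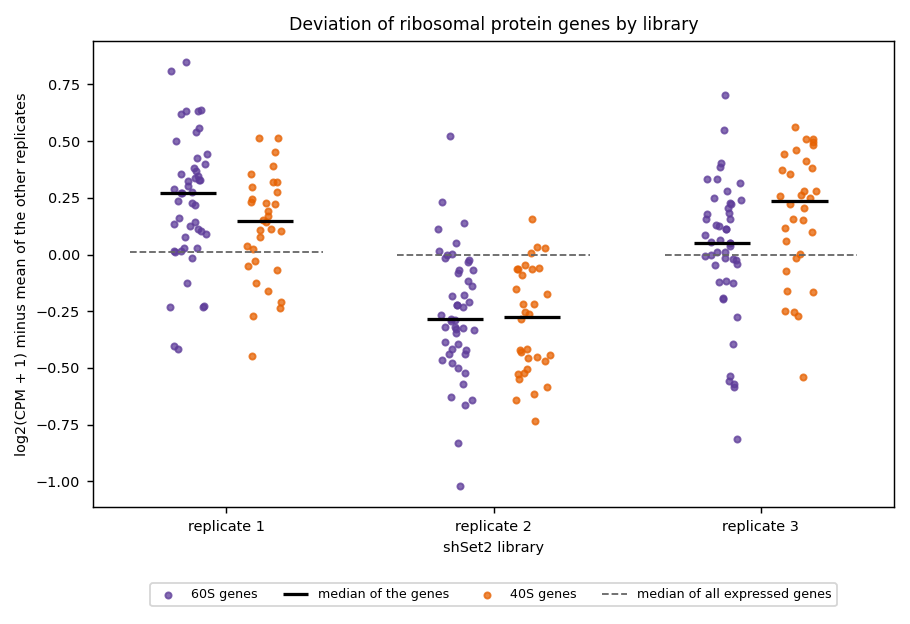
Deviation of each of the 80 expressed ribosomal protein genes in a shSet2 library, as log2(CPM + 1) minus the mean of the other replicates, with 60S genes in purple, 40S genes in orange, black bars at their medians and a dashed line at the median of all expressed genes. In replicate 2 both medians lie near -0.28, below the dashed line.

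RpL31, at the mouth of the exit tunnel, had the largest spread of any expressed member. It had 65, 29 and 77 counts, or 17.6, 7.67 and 15.6 CPM, a standard deviation of 0.59 on the log2(CPM + 1) scale. RpL10Ab was alike, with 37.1, 19.6 and 34.2 CPM. RpL11, which joins the ribosome with RpL5 and 5S ribosomal RNA, had 18.4, 9.79 and 13.6 CPM. For RpL31, RpL10Ab and RpL11 the low library was replicate 2. The spans of RpL31 and RpL10Ab overlap those of clos and CG32095, each with 11 counts or fewer per library. In all 5 of the largest spreads replicate 1 was highest by CPM. RpL37-1 was at 25.5, 14.02 and 14.2 CPM, low in both replicates 2 and 3, and RpL26 had its lowest level in replicate 3.

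The 5 members with the smallest spread were nearly level across the libraries. RpL22 was the steadiest, with 52.3, 52.4 and 51.5 CPM, a standard deviation of 0.01 on the log2 scale. RpL27A had 11.1, 10.6 and 11.1 CPM, RpS27 had 12.2, 12.2 and 11.6 CPM, RpL36A had 5.96, 5.29 and 5.67 CPM, and RpL5 had 55.0, 50.8 and 57.1 CPM. Of these, RpL22 and RpS27 had their lowest level in replicate 3, while RpL27A, RpL36A and RpL5 had it in replicate 2 by a small margin.

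The median SD over the 80 genes was 0.25 on the log2(CPM + 1) scale, against 0.18 for all expressed genes. Without replicate 2 it was 0.15, against 0.17 for all expressed genes in the same pair of libraries. The median biological coefficient of variation from edgeR was 0.149 for ribosomal protein genes, against 0.139 for all expressed genes. The median member had 72 counts in a library, for which counting alone gives an SD of 11.8%.

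Part of the spread was shared between genes. The variance of a gene's counts over libraries, as a multiple of counting variance, averaged 2.71 over the 80 genes on TMM-scaled totals, with a median of 2.35. For the 4367 expressed genes with summed counts in the same range, 36 to 965, the mean was 2.66 and the median 1.37 on the same totals. When each library was scaled by the ribosomal protein counts themselves, the mean over the 80 genes was 1.69, with its divisor lowered for the fitted totals. The median was 1.12 without that correction, and scaling by the genes' own counts tends to lower it. With 3 libraries the median under counting alone lies below the mean, so only the means read as multiples of counting variance.

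Marker lists of other cells also differed between the libraries. Summed over the list, inner photoreceptor markers had 51.2, 36.5 and 46.6 CPM in replicates 1, 2 and 3, markers of other neurons had 156, 119 and 121 CPM, muscle markers had 50.7, 13.2 and 18.8 CPM, and hemocyte markers had 31.4, 27.0 and 34.0 CPM. Each of these sums was lowest in replicate 2, but not every gene in them was. Among other neuron markers, VGlut and nAChRalpha6 were lowest in replicate 3, and the hemocyte marker Pxn was lowest in replicate 1. The muscle sum was mostly Mhc, at 43.9, 11.6 and 15.4 CPM. Markers of other neurons and muscle were also low in replicate 3, while those of inner photoreceptors and hemocytes were higher there. Glia markers, with 156, 126 and 110 CPM, and fat body markers, with 786, 644 and 588 CPM, were lowest in replicate 3. The fat body sum was mostly apolpp, at 776, 618 and 543 CPM, whereas Lsp2 was highest in replicate 3, at 10.03, 25.4 and 44.8 CPM. At least 10 counts in every library were found for 4 of 4 inner photoreceptor, 5 of 5 glia, 5 of 5 other neuron, 2 of 4 fat body, 1 of 4 muscle and 2 of 4 hemocyte genes, with Act88F and Fbp1 at 0. The outer photoreceptor list, mostly general phototransduction genes, was at 58851, 61019 and 58791 CPM. Transcripts of the mitochondrial genome, a list added after the counts had been seen, were at 1466, 1112 and 1063 CPM. The part of other cells or of cytoplasmic RNA in the low level of replicate 2 was not tested.

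**Figure D5:**
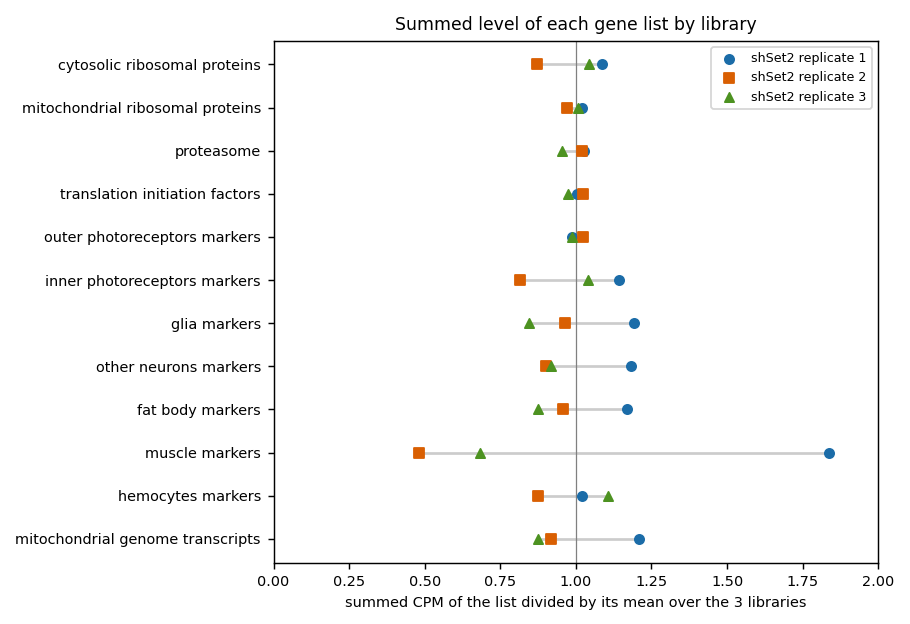
Summed CPM of each gene list divided by its own mean over the 3 shSet2 libraries, with 1 point per replicate. The cytosolic ribosomal proteins are lowest in replicate 2, the mitochondrial ribosomal proteins, proteasome and translation initiation factors stay near 1, and the muscle markers range most widely.

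Other gene families of protein turnover showed smaller median shifts. Mitochondrial ribosomal protein genes, the translation initiation factors and the proteasome subunits had median deviations of -0.05, 0.06 and -0.05 in replicate 2, against -0.28 for the cytosolic ribosomal protein genes. Their summed levels in replicate 2 were 0.959, 1.03 and 1.03 times the mean of the other replicates, against 0.817 times for the cytosolic ribosomal protein genes. By gene, 4 of 15 expressed mitochondrial ribosomal protein genes, 10 of 34 initiation factor genes and 12 of 27 proteasome genes were lowest in replicate 2. For all expressed genes this was 28.9%, and for the cytosolic ribosomal protein genes 56 of 80. The difference between families was not tested. Of 72 mitochondrial ribosomal protein genes 15 were expressed, of 48 proteasome genes 27, and of 44 initiation factor genes 34. Their medians were 4.03, 3.78 and 6.84 CPM per kb of gene span, against 12.9 CPM per kb for the cytosolic ribosomal protein genes.

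Overlapping annotation bears on 25 of the 92 genes, whose spans share bases with another protein-coding gene. The overlap is often a few bases, as for RpL23, which shares 7 bases with inaD, a photoreceptor scaffold gene with 3634, 3444 and 4446 counts, against 42, 30 and 30 for RpL23 itself. RpL41, with 41, 48 and 58 counts, lies wholly within the span of the sodium channel gene NaCP60E. Leaving out the 20 expressed genes of this kind, the summed level of the other 60 was 1438, 1159 and 1359 CPM, and 44 of the 60 (73.3%) were lowest in replicate 2, against 28.9% of all expressed genes.

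A set of 23 further genes held other translation factors, factors of ribosome assembly and regulators of ribosome production. In it, sta was at 21.9, 14.8 and 20.3 CPM in replicates 1, 2 and 3, lowest in replicate 2 as were 22 of the 32 expressed 40S genes with the RpS prefix. Rack1, a 40S scaffold protein that the symbol rule also leaves out, was at 28.4, 34.1 and 37.5 CPM, lowest in replicate 1. The elongation factor genes eEF1alpha1 and eEF2 were lowest in replicate 2, with 375, 291 and 338 CPM and 263, 225 and 243 CPM. Of the 23 genes in the set 20 were expressed, and 9 of the 20 were lowest in replicate 2, against 28.9% of all expressed genes. These 9 were sta, eEF1alpha1, eEF2, Nop60B, Nnp-1 and the regulators Myc, S6k, Maf1 and Trf2. Among the factors of ribosome assembly, Fib (7, 6 and 1 counts), Nop56 (3, 6 and 9 counts) and vito (4, 2 and 2 counts) were under 10 counts in every library, whereas Nop60B, nop5, Nnp-1 and Tsr1 were expressed. Nop60B, the pseudouridine synthase of the box H/ACA snoRNPs, had 44, 41 and 62 counts, and nop5, a box C/D snoRNP protein, had 69, 61 and 63. Nnp-1 had 25, 18 and 25 counts, and Tsr1 had 33, 35 and 39.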

How the data were processed

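The authors deposited whole-number read counts per gene, without normalization, for 3 shSet2 RNA-seq libraries. The table held 1 blank row, which was left out, and 0 columns of other samples. The submitters' processing notes name STAR, Bowtie2, DESeq2 and the builds dm6 and BDGP6, with no role or version, and the counting tool and strand setting are not given in the sources used here. Symbols were matched for 13884 of the 13947 identifiers. Gene spans, neighbours and overlaps came from the RefSeq table of Release 6 plus ISO1 MT, in which all 92 members were found. Without strand, counts of overlapping genes cannot be told apart.

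Library sizes were scaled with TMM in edgeR 4.0.16 (R 4.3.3), with factors of 1.009, 0.996 and 0.995, on genes with at least 10 counts in every library. Dispersion was fitted with estimateDisp and an intercept alone. DESeq2 1.42.0 size factors and dispersions, unscaled totals, other count minimums, a pseudocount of 0.1 in place of 1, and each replicate left out were alternatives. A further alternative left the gene Dcr-2 out of the total counts. The mean share of counts on members was then 0.173%, against 0.167% with it. Python 3.11.15 with pandas 2.3.3 and scipy 1.17.1 did the rest. A count of 3 was taken as the floor. Shares carry 95% Wilson intervals. The steps were tested on simulated counts.

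Genes named are all copies in duplicated groups, members under 10 counts in some library, the 5 highest and 5 lowest members per kb of gene span, the 5 with the largest and 5 with the smallest SD, the stalk, ubiquitin-fusion and RpS6 genes, Set2 and fixed lists. RpL3, RpL12, RpL23, RpL41 and the overlapping genes were added after their values were seen. The members and lists were chosen with earlier results of these data known. Exon or coding length, planned for the levels per length, was replaced by gene span, and a promoter motif search was not run, because no table of these was used here. With 1 group of 3 libraries, p-values were not computed, and the spread covers these labelled biological replicates alone.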

Additional observations from a re-analysis of the deposited data

How the results depend on the processing

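No paired analysis was possible because the counts analysed come from a single group, shSet2. With 3 libraries in it, Dixon's test for an outlying library was not applied. The number of expressed members was 47 with a minimum of 50 counts, and 80 to 81 with a replicate left out. The 60S to 40S ratio was 0.869 with no length correction and 1.12 with no count minimum. For the median SD of log2(CPM + 1), leaving out each replicate gave 0.15 to 0.25, lowest without replicate 2. The median coefficient of variation was 0.201 with DESeq2 dispersions and 0.141 to 0.164 with a replicate left out, highest without replicate 2. The causes were not tested. The median deviation in replicate 1 was 0.19 with DESeq2 size factors, and in replicate 2 it stayed below 0 under each of the scalings and pseudocounts run. As ratios of medians, cytosolic ribosomal protein genes were at 3.84 times the mitochondrial ones in CPM, 9.86 with no count minimum and 3.21 per kb. Against proteasome genes the ratio was 2.68, 4.38 and 3.42, and against initiation factors 0.910, 1.38 and 1.89, so the order in the last case turned with both settings. Mean CPM of a member shifted by more than 1 SD in 0 of 172 recalculations on DESeq2 or unscaled totals. Since the scaling factors were near 1, these totals could hardly move a mean, so this count says little. On these totals 54 and 56 members were lowest in replicate 2. The 5 shares of minor copies that moved were those per kb of gene span, an alternative added after seeing the data, for RpL24-like (22.0%), RpLP0-like (6.21%), RpS10a (5.77%), RpS15Ab (17.0%) and RpS5b (6.09%). The planned promoter motif search and coding lengths were not run. Depth limits what can be said of the minor copies, since the floor of 3 counts in a library is 0.608 to 0.813 CPM.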

Other observations

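Genes that control ribosome production belong to the set of 23 further genes counted in the report, where their levels were not given. Myc, a transcription factor that drives ribosome biogenesis, was at 229, 196 and 207 CPM in replicates 1, 2 and 3. The kinase genes mTor and S6k were at 54.7, 60.6 and 51.5 CPM and at 132, 130 and 136 CPM. Thor, the translation inhibitor that the TOR kinase phosphorylates, was at 40.6, 42.1 and 30.4 CPM. Maf1, a repressor of RNA polymerase III, was at 131, 120 and 130 CPM. None of these genes stood apart in replicate 2 by as much as the median ribosomal protein gene, whose deviation was -0.28.

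Xrp1, a transcription factor that responds to ribosomal protein gene loss in flies, was at 108, 88.6 and 63.0 CPM, lowest in replicate 3. Its partner Irbp18 had 18, 17 and 15 counts and was also lowest in replicate 3 by CPM (4.88, 4.50 and 3.04). Trf2, which encodes a TBP-related factor that acts at ribosomal protein gene promoters in flies, was at 208, 197 and 200 CPM. M1BP and Dref, which bind promoter elements found at many ribosomal protein genes, had 16, 23 and 28 and 20, 28 and 37 counts, and both were lowest in replicate 1 by CPM.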
